A study of Mus musculus with 24 samples.

Results

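Slco1a1, Slco1a4, Slco1b2, Slco2b1 and Slco2a1 encode organic anion transporting polypeptides, carriers that bring bile acids, steroid conjugates, hormones and drugs into cells. These 5 genes, of 52636 listed, were chosen by symbol, because earlier results of the same data showed a large and opposite diet difference for Slco1a1 and Slco1a4. They were read in RNA bound to polysomes, the fraction of messenger RNA that carries several ribosomes, from livers of C57BL/6 mice aged 5 months. Calorie-restricted (CR) mice received 30% fewer calories for 3 months, from 2 months of age, and control mice ate ad libitum (AL). Livers were collected at zeitgeber times (ZT) 2, 6, 10, 14, 18 and 22 h, giving 6 CR groups and 6 AL groups with 2 libraries each, 24 libraries in all. The labels give neither the sex of the mice nor the hours of feeding. They also do not say that the libraries of a group came from separate animals, so p-values here cover the spread of these libraries alone, and that spread may be technical. At AL ZT22 the pair is labelled 2C and 2d, with the same number 2, and whether they come from 1 animal is not given. Total RNA was not analysed here, so transcript amount and ribosome loading cannot be told apart.

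Organic anion transporting polypeptides work without sodium and exchange substrates by facilitated transport. In mouse liver, OATP1A1 (Slco1a1), OATP1A4 (Slco1a4), OATP1B2 (Slco1b2) and OATP2B1 (Slco2b1) sit on the sinusoidal membrane of hepatocytes, where they take up bile acids, sulfated and glucuronidated steroids, thyroid hormones, bilirubin and many drugs. Slco1a1 is known to be higher in male mouse liver under pulsed growth hormone, and Slco1a4 is known as a target of the xenobiotic receptor PXR. Slco2a1 encodes the prostaglandin transporter, best known from endothelial and epithelial cells.

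Slco1a1 (ENSMUSG00000041698.11) lies on the minus strand at chr6:141907282-141946962, and Slco1a4 (ENSMUSG00000030237.14) lies on the same strand at chr6:141805440-141856199, in build GRCm38. The intervening 51.1 kb holds 1 other annotated gene, the long noncoding RNA Gm30784. Slco1b2 (ENSMUSG00000030236.10) lies 119 kb beyond Slco1a4, on the plus strand at chr6:141629518-141686646. Slco2b1 (ENSMUSG00000030737.17, chr7:99657804-99711340, minus strand) and Slco2a1 (ENSMUSG00000032548.14, chr9:102988712-103096002, plus strand) lie on other chromosomes. The coding sequences of Slco1a1 and Slco1a4 are each 2013 bases long and differ at 269 of them, an identity of 86.6%. Every other pair among the 5 members shared 58.1% to 64.7% of its aligned coding bases. The longest stretch common to Slco1a1 and Slco1a4, 132 bases, is shown because reads that fall inside it cannot be assigned to one gene. It spans coding positions 672 to 803 of both genes, counted from the start codon, in the annotated transcripts of GENCODE M21.

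Slco1a1 and Slco1a4 shared coding run: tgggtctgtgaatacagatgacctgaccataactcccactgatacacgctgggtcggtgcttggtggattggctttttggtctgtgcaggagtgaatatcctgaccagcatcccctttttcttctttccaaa

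Such stretches were few. Of all words of 50 bases in its exons, Slco1a1 shared 1.64% with another annotated gene, Slco1a4 1.61%, Slco1b2 0%, Slco2a1 1.28% and Slco2b1 5.89%. The libraries carry no strand, and exons of Slco2b1 overlap Gm15635 and Gm34280 on the opposite strand, so Slco2b1 reads cannot be told from theirs. An exon of Slco2a1 likewise overlaps the small ribosomal RNA gene n-R5s89.

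Promoter windows of the 3 neighbouring genes are shown because 2 of them differed between diets in opposite directions within 1 cluster. Each window runs from 250 bases before to 50 bases after the annotated start, 5′ to 3′ on the strand of the gene, from RefSeq on GRCm38.p6. The windows are chr6:141946913-141947212 (minus strand) for Slco1a1, chr6:141856171-141856470 (minus strand) for Slco1a4 and chr6:141629268-141629567 (plus strand) for Slco1b2. Capitals mark matches to 6 motifs searched on both strands. Those were TTCNNNGAA (the STAT5 type), ATTGAT (the HNF6 and CUX2 type), TGTTTAC (the FOXA type), GTTAAT (the HNF1 type), CAAAGTCCA (the HNF4A type) and TGACNNNGC (the NRF2 type).

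Slco1a1 promoter: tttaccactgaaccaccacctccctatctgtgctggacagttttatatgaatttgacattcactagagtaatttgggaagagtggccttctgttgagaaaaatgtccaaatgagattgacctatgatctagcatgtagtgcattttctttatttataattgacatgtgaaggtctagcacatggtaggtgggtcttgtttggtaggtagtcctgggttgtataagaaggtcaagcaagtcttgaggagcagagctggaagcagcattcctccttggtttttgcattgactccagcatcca
Slco1a4 promoter: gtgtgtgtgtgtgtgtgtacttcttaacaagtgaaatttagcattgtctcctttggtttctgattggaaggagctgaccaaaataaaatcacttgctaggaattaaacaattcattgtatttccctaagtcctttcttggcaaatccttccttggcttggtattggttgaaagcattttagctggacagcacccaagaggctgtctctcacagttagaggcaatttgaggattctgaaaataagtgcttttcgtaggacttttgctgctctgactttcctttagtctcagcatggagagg
Slco1b2 promoter: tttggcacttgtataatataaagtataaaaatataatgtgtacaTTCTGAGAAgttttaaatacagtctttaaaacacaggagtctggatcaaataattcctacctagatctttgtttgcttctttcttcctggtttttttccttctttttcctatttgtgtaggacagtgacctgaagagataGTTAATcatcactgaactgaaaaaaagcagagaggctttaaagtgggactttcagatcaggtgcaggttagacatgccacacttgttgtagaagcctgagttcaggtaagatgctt

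None of the 6 motifs occurred in the Slco1a1 or Slco1a4 window. The Slco1b2 window held TTCTGAGAA 206 bases before the start and GTTAAT 66 bases before it. Among 32851 RefSeq promoter windows of the same length, 8.30% held TTCNNNGAA, 7.54% ATTGAT, 3.65% TGTTTAC, 7.10% GTTAAT, 0.475% CAAAGTCCA and 12.4% TGACNNNGC. No 2 of the motifs found overlapped. The windows contained 42% G and C bases for Slco1a1, 40.7% for Slco1a4 and 35.3% for Slco1b2.

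Each library held 13.8 to 60.8 M (mega) counted reads, with 33.2 ± 13.3 M in CR and 26.2 ± 8.21 M in AL (SD, n = 12 each). Between 1.02% and 62.2% of them fell on features of ribosomal RNA. All 5 members passed the filter on low counts, with 19 to 24716 reads per library. Levels are given in CPM, read counts divided by library size in M, after TMM (trimmed mean of M-values) normalisation. Defining markers of hepatocytes were abundant in both diets, with a sum over 11 genes of 67915 ± 14801 CPM in CR and 65279 ± 15507 CPM in AL. Markers of Kupffer cells, the macrophages of liver, summed to 173 ± 30.4 CPM in CR, against 341 ± 127 CPM in AL. Of the 11 genes, 10 were lower in CR at an adjusted p of 0.05 by edgeR. Marco was higher, with 17.2 ± 9.51 CPM in CR and 9.88 ± 6.48 CPM in AL. Without the libraries CR ZT6 2 and CR ZT18 2, described below, 10 were lower and 0 were higher. Markers of stellate cells and fibroblasts summed to 439 ± 90.3 CPM in CR, against 267 ± 78.9 CPM in AL. Most of that sum came from Dcn (182 CPM in CR, 107 CPM in AL) and Ecm1 (185 CPM in CR, 102 CPM in AL). Of the 9 genes, 4 were higher in CR at an adjusted p of 0.05 by edgeR and 0 were lower. Lrat, Pdgfrb and Colec11 differed little, and Col1a1 (-0.58 ± 0.28 log2 units, CR minus AL, ± SE) and Col3a1 (-0.65 ± 0.22) lay lower in CR without passing. Markers of B, T and NK cells summed to 7.40 ± 4.35 CPM in CR, against 14.8 ± 7.73 CPM in AL. Most of that sum was Ighm, with 4.96 ± 3.48 CPM in CR and 10.2 ± 7.03 CPM in AL. Of 8 tested markers, 2 (Cd4 and Ighm) were lower in CR at an adjusted p of 0.05 by edgeR and 0 were higher. No other tested marker had a mean above 1.29 CPM in either diet. In bulk tissue, fewer cells of a type and less RNA per cell cannot be told apart. The libraries CR ZT6 2 and CR ZT18 2 stood apart from the other 10 CR libraries in Slco1a1 and in male-biased genes, near the AL level. Whether their labels are right was not tested, and they are called here by the labels they carry. The levels, shares and ratio of Slco1a1 and Slco1a4, their diet and time contrasts, the gene lists and the correlations within CR are also given without them.

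Slco1a1 was lower in CR at every time point and Slco1a4 was higher. The members were chosen with this difference known, so it is described here without a test. In CR, Slco1a1 ranged from 1.51 to 78.0 CPM with a median of 3.50, and in AL it ranged from 87.1 to 251 CPM with a median of 177. Its means were 14.2 ± 25.4 CPM in CR and 179 ± 43.8 CPM in AL (SD, n = 12 each). No CR library reached the lowest AL library.

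The 2 CR libraries had 1.51 and 1.97 CPM of Slco1a1 at ZT2, 6.19 and 57.4 CPM at ZT6, 2.10 and 2.50 CPM at ZT10, 2.93 and 4.69 CPM at ZT14, 6.50 and 78.0 CPM at ZT18, and 2.39 and 4.08 CPM at ZT22. The high values at ZT6 and ZT18 each came from a single library, 9.26-fold and 12-fold above the other library of the group. The AL pairs were 176 and 198 CPM at ZT2, 251 and 145 CPM at ZT6, 173 and 230 CPM at ZT10, 202 and 144 CPM at ZT14, 153 and 209 CPM at ZT18, and 87.1 and 177 CPM at ZT22. The libraries of an AL group differed by at most 2.04-fold, at ZT22. The lowest CR level rested on 19 reads, so counting error is largest there.

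Averaged over the time points, the diet difference of Slco1a1 was -4.80 ± 0.37 log2 units (CR minus AL, ± SE), a 27.8-fold lower level. It was -6.73 ± 0.99 at ZT2, -2.64 ± 0.81 at ZT6, -6.46 ± 0.97 at ZT10, -5.50 ± 0.93 at ZT14, -2.10 ± 0.79 at ZT18 and -5.37 ± 0.92 at ZT22. The smallest differences fell at the 2 time points that contain the libraries with high Slco1a1. Without those libraries the other 10 CR libraries had 3.49 ± 1.79 CPM, between 1.51 and 6.50 CPM, and the average diet difference was -5.65 log2 units.

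Slco1a4 ran the other way. In CR it ranged from 27.2 to 152 CPM with a median of 48.0, and in AL from 2.71 to 14.3 CPM with a median of 7.65. Its means were 55.4 ± 33.9 CPM in CR and 8.21 ± 3.13 CPM in AL (SD, n = 12 each), and again the diets did not overlap.

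The CR pairs had 42.1 and 57.6 CPM of Slco1a4 at ZT2, 53.9 and 28.7 CPM at ZT6, 61.0 and 152 CPM at ZT10, 56.4 and 76.7 CPM at ZT14, 40.2 and 27.2 CPM at ZT18, and 38.4 and 30.6 CPM at ZT22. The CR level was highest at ZT10, mainly through 1 library. The AL pairs had 6.56 and 11.6 CPM at ZT2, 6.68 and 7.03 CPM at ZT6, 6.25 and 9.50 CPM at ZT10, 8.27 and 9.24 CPM at ZT14, 2.71 and 5.42 CPM at ZT18, and 10.9 and 14.3 CPM at ZT22. In AL the lowest group was ZT18, which did not overlap the next lowest, ZT6. The share of all tested genes with such a gap was not computed, so nothing is read from it. Time of day in AL was not called for Slco1a4 (adjusted p = 0.220 by edgeR's F-test).

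The average diet difference of Slco1a4 was 2.70 ± 0.19 log2 units, a 6.51-fold higher level in CR. By time point it was 2.45 ± 0.45 at ZT2, 2.59 ± 0.46 at ZT6, 3.76 ± 0.48 at ZT10, 2.93 ± 0.47 at ZT14, 3.03 ± 0.47 at ZT18 and 1.45 ± 0.44 at ZT22. All 6 estimates were positive. Without CR ZT6 2 and CR ZT18 2, which held the 2 lowest CR levels of Slco1a4, the other 10 CR libraries had 60.9 ± 34.7 CPM and the average diet difference was 2.81 log2 units.

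**Figure D1:**
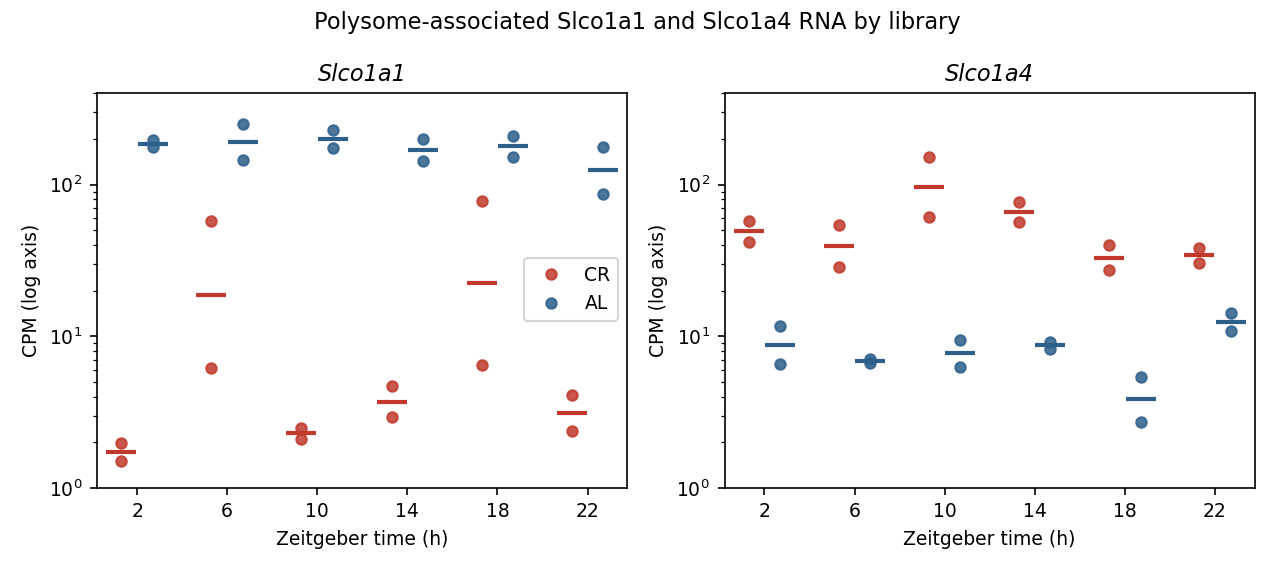
Polysome-associated Slco1a1 (left) and Slco1a4 (right) in CPM on a log axis against zeitgeber time in h, with 1 point per library, CR in red left of AL in blue, and the bar at the geometric mean of each pair. For Slco1a1 every CR point lies below the lowest AL point, with 57.4 CPM at ZT6 and 78.0 CPM at ZT18 far above the other CR points, and for Slco1a4 every CR point lies above the highest AL point.

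Of the 15490 genes tested on the diet average, 12.7% passed an adjusted p of 0.05 (quasi-likelihood test of edgeR, Benjamini-Hochberg method), 5.6% higher and 7.05% lower in CR. These shares are the background for the gene lists below. All 12 CR libraries lay above all 12 AL libraries for 0.11% of tested genes and below them for 0.174%, and the sign was the same at all 6 time points for 14.2%. Slco1a1 and Slco1a4 were chosen on these values, so nothing is read from where the members stand among those shares.

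The ratio of Slco1a4 to Slco1a1, per length of transcript, compares both carriers within a library and needs no normalisation between libraries. Its log2 value was 3.27 ± 2.30 in CR, between -1.49 and 5.96, and -4.48 ± 0.77 in AL, between -5.79 and -2.97 (SD, n = 12 each). The diets therefore differed by 7.75 log2 units without overlap. That separation follows from the levels of both genes, on which they were chosen, so it adds no support and was not tested. Slco1a4 exceeded Slco1a1 in every CR library except CR ZT6 2 (-0.97) and CR ZT18 2 (-1.49), and Slco1a1 exceeded Slco1a4 in all 12 AL libraries. Without those 2 libraries the CR mean was 4.17 ± 1.03 and the difference 8.65. Within AL the ratio was highest in both ZT22 libraries, which may not be separate animals, at -2.97 and -3.60, and lowest in both ZT18 libraries, at -5.79 and -5.24. This order was not tested.

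**Figure D2:**
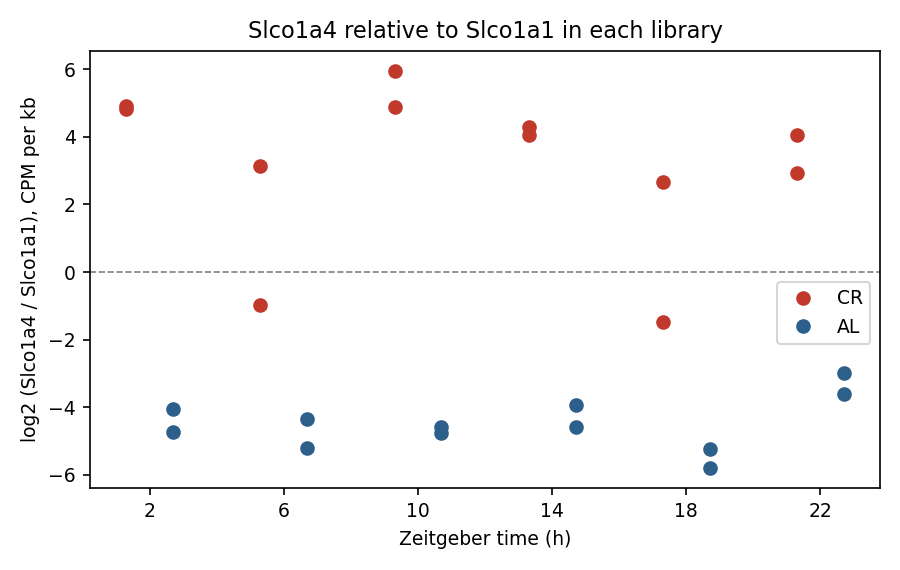
Log2 ratio of Slco1a4 to Slco1a1 (CPM per kilobase of transcript) in each library against zeitgeber time in h, CR in red left of AL in blue, with equal levels at the dashed line. Of the CR points, 1 at ZT6 (-0.97) and 1 at ZT18 (-1.49) lie below the line, and all AL points lie between -5.79 and -2.97.

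CR ZT6 2 and CR ZT18 2 differed from the other CR libraries in sex-biased genes as well. The median of 20 male-biased liver genes, as log2 against the AL mean, was -1.30 in CR ZT6 2 and -0.74 in CR ZT18 2, between -5.80 and -3.54 in the other 10 CR libraries, and between -1.04 and 0.83 in AL. Slco1a1 on the same scale was -1.59 in CR ZT6 2 and -1.15 in CR ZT18 2, and -6.79 to -4.72 in the other 10. The 2 libraries were thus high in both measures. Both lists of sex-biased genes were chosen with earlier results of these data known. The median of the female-biased genes was 1.19 in CR ZT6 2 and 3.65 in CR ZT18 2, between 3.27 and 4.78 in the other 10 CR libraries, and between -0.40 and 0.39 in AL. Slco1a4 on that scale was 1.91 in CR ZT6 2, 1.83 in CR ZT18 2 and 2.00 to 4.31 in the other 10. So CR ZT6 2 lay between the diets in both lists, whereas CR ZT18 2 lay within the other CR libraries for female-biased genes. Their hepatocyte markers summed to 63306 CPM in CR ZT6 2 and 73110 CPM in CR ZT18 2, within the 47243 to 103493 CPM of the other 10, and their Kupffer cell markers summed to 212 and 190.4 CPM, within 124 to 228 CPM. Markers of B, T and NK cells summed to 8.70 CPM in CR ZT6 2 and to 18.6 CPM in CR ZT18 2, the second above the 2.21 to 11.3 CPM of the other 10. Markers of large-vessel endothelial cells summed to 55.9 CPM in CR ZT6 2, below the 59.7 to 108 CPM of the other 10, and to 87.5 CPM in CR ZT18 2. The sums of sinusoidal endothelial cell, stellate cell, cholangiocyte and red blood cell markers in both libraries lay within those of the other 10. The part of these sums in the high Slco1a1 of the 2 libraries was not tested.

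**Figure D3:**
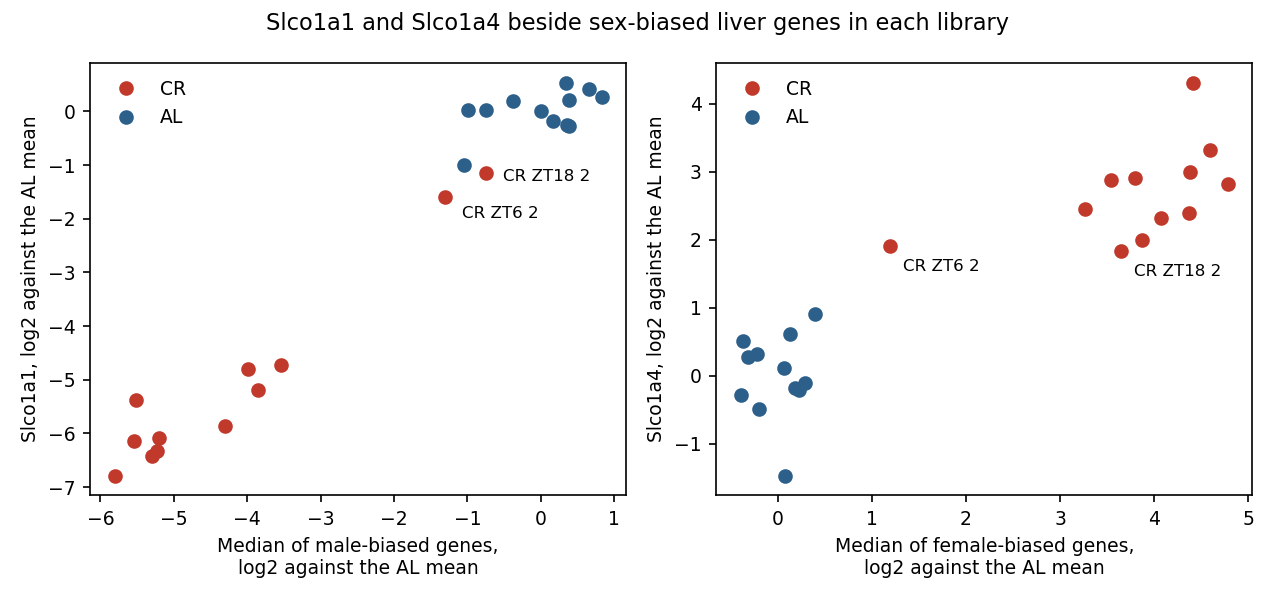
Left, Slco1a1 against the median of 20 male-biased liver genes. Right, Slco1a4 against the median of 22 female-biased liver genes, all as log2 against the AL mean, with 1 point per library and CR in red, AL in blue. CR ZT6 2 and CR ZT18 2 lie near the AL points on the left (Slco1a1 -1.59 and -1.15), while on the right only CR ZT6 2 has a female-biased median (1.19) apart from the other CR points.

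Slco1b2, whose carrier takes up bile acids and bilirubin and also the toxins phalloidin and microcystin, was the most abundant member. It ranged from 165 to 596 CPM in CR with a median of 260.5 (283 ± 113) and from 202 to 680 CPM in AL with a median of 344 (367 ± 128). The diets overlapped widely, and the average difference was -0.36 ± 0.18 log2 units, negative at 5 of 6 time points. When the 12 groups were ordered by mean, all 11 neighbouring pairs overlapped. The order began with AL ZT6 (324 and 680 CPM) and ended with CR ZT18 (165 and 246 CPM).

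Slco2b1, a carrier of steroid sulfates and drugs, ranged from 24.7 to 87.4 CPM in CR with a median of 50.3 (53.4 ± 18.4) and from 30.2 to 71.1 CPM in AL with a median of 45.3 (46.1 ± 13.8). The average diet difference was 0.21 ± 0.15 log2 units, positive at 5 of 6 time points. The CR libraries of ZT10 had 87.4 and 81.3 CPM, above every library of the other 11 groups. The share of all tested genes with such a separate top group was not computed, so nothing is read from it. Time of day in CR was not called for Slco2b1 (adjusted p = 0.216 by edgeR's F-test). At the bottom of the order, AL ZT6 (30.9 and 32.3 CPM) did not overlap its neighbour AL ZT14, and the other 9 neighbouring pairs overlapped. Nothing is read from that gap either, as its share over all tested genes was not computed.

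Slco2a1, the prostaglandin transporter, ranged from 18.4 to 68.8 CPM in CR with a median of 36.5 (34.7 ± 14.1) and from 14.7 to 48.8 CPM in AL with a median of 27.0 (29.0 ± 10.9). The average diet difference was 0.24 ± 0.13 log2 units, with a positive sign at 4 of 6 time points. The highest group was CR ZT22, with 43.8 and 68.8 CPM, and the lowest were CR ZT6, with 18.4 and 20.3 CPM, and AL ZT14, with 14.7 and 15.8 CPM. CR ZT6 overlapped neither of its neighbours in the order, AL ZT18 and AL ZT14. The other 9 neighbouring pairs overlapped. The share of all tested genes with such gaps was not computed, so nothing is read from them. Summed markers of sinusoidal endothelial cells were 206 ± 50.5 CPM in CR and 208 ± 40.9 CPM in AL, and those of large-vessel endothelial cells 78.2 ± 17.1 CPM in CR and 67.3 ± 11.8 CPM in AL. Over the 24 libraries, Slco2a1 had a Pearson r of 0.08 with the first sum, 0.00 with the second and -0.39 with the hepatocyte sum, a description over libraries that share depth and composition.

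**Figure D4:**
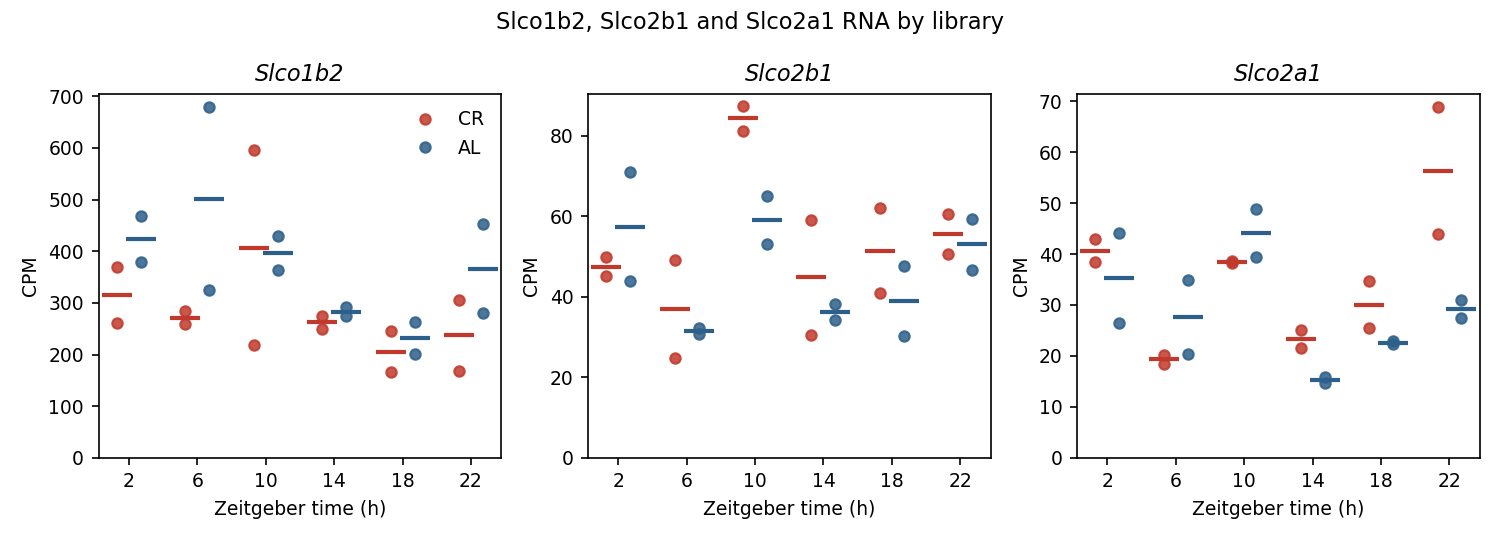
Slco1b2, Slco2b1 and Slco2a1 in CPM against zeitgeber time in h, with 1 point per library, CR in red left of AL in blue, and the bar at the mean of each pair. The diets overlap in all 3 genes, the CR points of Slco2b1 stand highest at ZT10 (87.4 and 81.3 CPM), and those of Slco2a1 run between 18.4 CPM at ZT6 and 68.8 CPM at ZT22.

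Levels of different genes were compared per kilobase of the longest coding transcript. Slco1b2 stood first in both diets, with 85.6 ± 34.2 CPM per kb in CR and 111 ± 38.8 in AL. Slco1a4 came second in CR with 14.5 ± 8.88 CPM per kb, against 2.15 ± 0.818 in AL, where it was the lowest member. Slco1a1 was the lowest member in CR with 3.63 ± 6.51 CPM per kb, a median of 0.898, against 45.8 ± 11.2 in AL, where it came second. Without CR ZT6 2 and CR ZT18 2 its CR mean was 0.893 ± 0.459 CPM per kb (SD, n = 10). Slco2b1 had 12.2 ± 4.19 CPM per kb in CR and 10.5 ± 3.15 in AL, and Slco2a1 had 4.87 ± 1.98 in CR and 4.08 ± 1.53 in AL. In CR, the levels of Slco1a4 and Slco2b1 did not differ beyond their spread.

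The 5 members summed to 121 ± 41.4 CPM per kb in CR and 174 ± 46.5 in AL, between 85.1 and 245 in CR and between 115 and 281 in AL. Slco1a1 made up 3.45 ± 6.45% of this sum in CR and 26.9 ± 5.88% in AL. Its CR share was 0.795 ± 0.480% without CR ZT6 2 and CR ZT18 2, so those libraries set most of the CR mean. Slco1a4 made up 11.6 ± 3.66% in CR, or 12.5 ± 3.25% without the same libraries, and 1.28 ± 0.528% in AL. Slco1b2 made up 70.0 ± 8.23% in CR and 63.0 ± 6.32% in AL, so a single carrier held most of the sum in both diets. The sum was not tested, since it contains the members chosen on this contrast.

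Time of day was tested within each diet, a comparison the choice of members did not use. In CR, 6.91% of tested genes changed over the 6 time points by edgeR's F-test, and among the members Slco1a1 (adjusted p = 0.000999) and Slco2a1 (adjusted p = 0.0266) did. For Slco1a4 the adjusted p was 0.0533, for Slco2b1 0.216 and for Slco1b2 0.508. The Slco1a1 call rested on the 2 libraries described above. It held when either was left out alone, but without both the adjusted p by edgeR was 0.0980, in a fit that called 3.27% of genes. The Slco2a1 call was lost without CR ZT14 1 (0.0650), CR ZT14 2 (0.0721), CR ZT2 1 (0.0528), CR ZT22 1 (0.110) or CR ZT6 2 (0.0703), and without CR ZT6 2 and CR ZT18 2 together (0.0969). Slco1a4 passed with DESeq2 (0.00739) or with no filter on low counts in edgeR (0.000454). With 1 library left out, its adjusted p by edgeR fell on both sides of the threshold. That value was highest without CR ZT10 2, the library with 152 CPM. It was lowest without CR ZT10 1, where CR ZT10 2 was the only CR library of ZT10.

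In AL, 5.05% of tested genes changed over time and none of the 5 members did. The adjusted p by edgeR was 0.988 for Slco1a1, 0.220 for Slco1a4, 0.462 for Slco1b2, 0.339 for Slco2b1 and 0.0548 for Slco2a1. Slco2a1 in AL was near the threshold and passed with a filter of 1 CPM in 12 libraries (0.0499), DESeq2 (0.00717), no composition factor (0.0215) or no filter (0.0311). It also passed in edgeR without AL ZT6 2 (0.0355), CR ZT10 1 (0.0283) or CR ZT10 2 (0.0279).

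Whether the diet difference itself varied over the day was tested with an interaction. By edgeR 0% of tested genes passed, 1337 genes (8.63%) had an unadjusted p under 0.05, and DESeq2 called 169. Among the members the adjusted p was 0.383 for Slco1a1, 0.555 for Slco1a4, 0.574 for Slco2a1, 0.890 for Slco1b2 and 0.903 for Slco2b1, with unadjusted p of 0.00136, 0.0313, 0.0477, 0.682 and 0.718 in that order. Slco1a1 passed without a low-count filter (1.34e-19 by edgeR), in a fit that kept 26913 genes and called 709. The reason for so low a value beside the unadjusted 0.00136 of the main fit was not tested. Slco1a1 also passed without CR ZT6 1, which left CR ZT6 2 (57.4 CPM of Slco1a1) as the only CR library of ZT6. Without CR ZT6 2 and CR ZT18 2 it did not pass. A cosine with a period of 24 h was called for 1.94% of genes in CR and 0.42% in AL, with no member among them. The cosine differed between the diets for 0% of genes by edgeR, and 1005 genes (6.49%) had an unadjusted p under 0.05. The lowest adjusted p of a member was that of Slco1a4 in CR, 0.163, with an amplitude of 0.69 log2 units and a fitted peak at 9.97 h.

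Other genes of the family were scarce in these libraries. Of the 10 listed, 2 passed the filter. Slco3a1, a carrier of prostaglandins and thyroid hormone, had 4.15 ± 1.27 CPM in CR and 3.55 ± 1.34 CPM in AL, a difference of 0.27 ± 0.19 log2 units (adjusted p = 0.386 by edgeR). Slco4a1 had 96 reads over all libraries (2.06 ± 1.00, adjusted p = 0.196). Slco1a5, Slco6b1 and Slco6c1 had 0 reads in 712 M reads, which allows up to 0.00421 CPM over all libraries. Slco1a6 had 1 read, Slco1c1 5, Slco4c1 2, Slco6d1 2 and Slco5a1 49. Slco1a5 has 88.0% coding identity with Slco1a1 and 89.3% with Slco1a4 and lies in the same cluster.

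Among 20 other carriers of the sinusoidal membrane and related uptake, 5 rose and 4 fell in CR, and the list's median was 0.12 log2 units. Without CR ZT6 2 and CR ZT18 2, 4 rose and 4 fell. The tested genes as a whole had 868 that rose, 1092 that fell and a median of -0.02. Slc22a26, an organic anion transporter gene, had 46.3 ± 20.2 CPM in CR and 0.598 ± 0.331 CPM in AL and rose by 6.29 ± 0.45 log2 units (adjusted p = 4.18e-09 by edgeR). Its close relative Slc22a27 rose by 5.72 ± 0.47, whereas Slc22a28 (-5.12 ± 0.40) and Slc22a30 (-1.59 ± 0.17) fell. Reads of this cluster are partly uncertain, since words of 50 bases shared with other genes made up 6.21% of Slc22a26, 29.9% of Slc22a27, 53.9% of Slc22a28 and 34.3% of Slc22a30. In CR ZT6 2, Slc22a26 had 0.398 CPM, within the AL range, and without CR ZT6 2 and CR ZT18 2 the difference was 6.55 ± 0.21. Slc10a1, which encodes the main sodium-dependent bile acid carrier NTCP, had 109 ± 65.7 CPM in CR and 113 ± 44.2 CPM in AL, a difference of -0.10 ± 0.22 (adjusted p = 0.848). It was chosen after its values were seen.

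Of 16 efflux genes, 15 were tested, 4 rose and 2 fell, with a median of 0.14 log2 units, and 3 rose and 2 fell without the 2 CR libraries named above. Abcb1a, a drug efflux pump, rose by 2.81 ± 0.28 log2 units, to 9.76 ± 5.18 CPM in CR against 1.41 ± 0.894 CPM in AL. Its neighbour Abcb1b had 0.295 ± 0.310 CPM in CR and 0.811 ± 0.596 CPM in AL and fell by 1.68 ± 0.42, and words shared with other genes made up 22.5% of Abcb1a and 12.8% of Abcb1b. Abcc4, a basolateral exporter of bile acids and prostaglandins, rose by 2.23 ± 0.34, and Slc51b, a subunit of a basolateral bile acid exporter, rose by 1.31 ± 0.31. Abcb11, the canalicular bile salt export pump, had 290.4 ± 97.2 CPM in CR and 289.8 ± 82.5 CPM in AL (-0.01 ± 0.15, adjusted p = 1.00 by edgeR), and was likewise named after its values were seen.

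**Figure D5:**
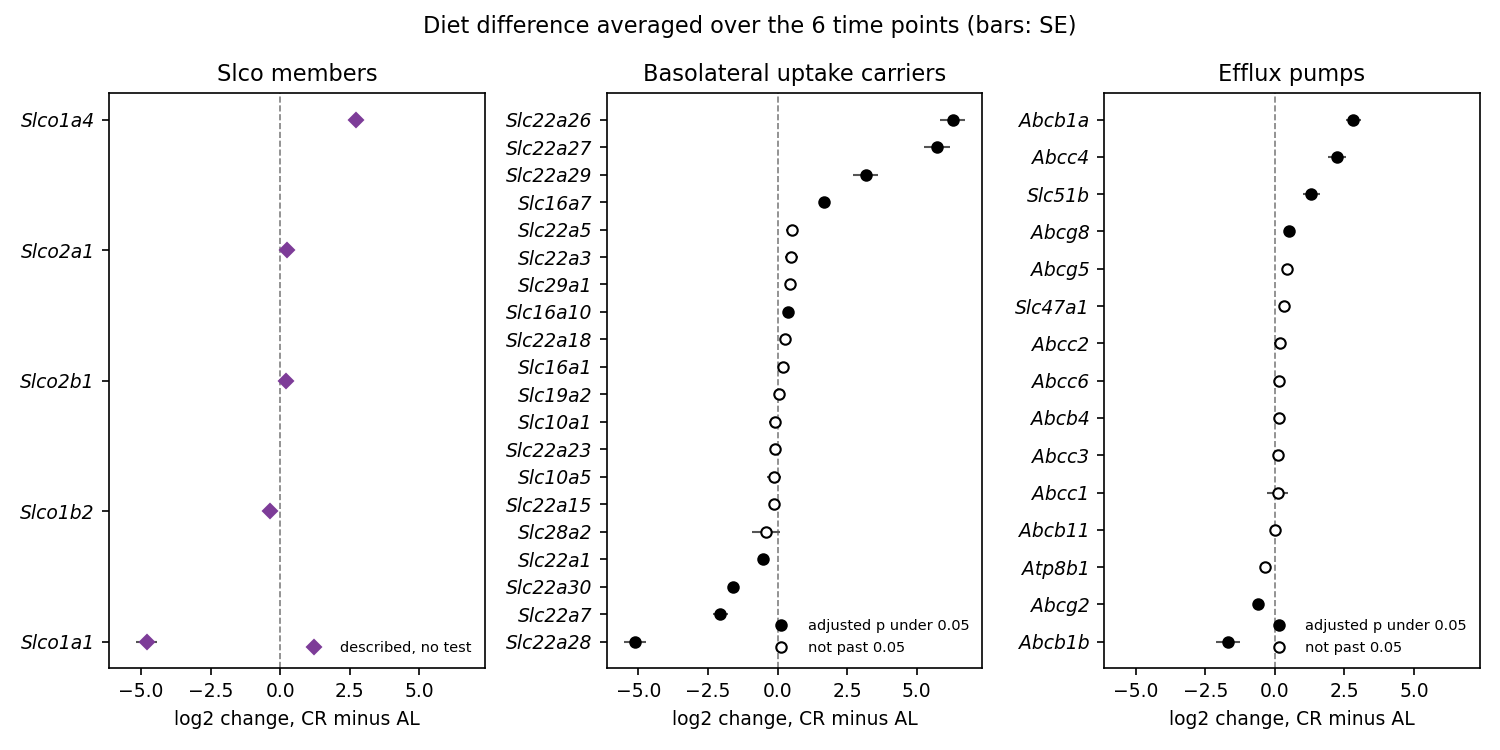
Diet difference averaged over the 6 time points, log2 CR minus AL with SE as bars, for the 5 Slco members (diamonds, described without a test), 20 uptake carriers and 15 efflux genes (filled circles passed an adjusted p of 0.05, open circles did not). Slco1a1 (-4.80) and Slco1a4 (2.70) lie at the ends of the members, Slc22a26 (6.29) and Slc22a28 (-5.12) at the ends of the uptake carriers, and most efflux genes lie near 0.

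Genes that act on transporter genes were counted next, from lists chosen with earlier results of these data known. Of 20 nuclear receptors and transcription factors, 2 rose and 5 fell, with a median of -0.02. Nr1i2, which encodes PXR, rose by 0.64 ± 0.17 log2 units (adjusted p = 0.0147 by edgeR). That call was lost without CR ZT6 2 and CR ZT18 2 (adjusted p = 0.0701 by edgeR), and the gene was named after its values were seen. Cux2, a repressor known from female mouse liver, rose by 5.95 ± 0.37 log2 units, and Foxa1 (-1.05 ± 0.18), Bcl6 (-1.44 ± 0.30) and Cebpa (-0.65 ± 0.14), all liver transcription factors, fell. Of 15 genes of the growth hormone signal, 2 rose and 2 fell, with a median of -0.14. Ghr, the growth hormone receptor, fell by 0.97 ± 0.17, as did the growth factor receptor gene Egfr (-2.51 ± 0.32), while Prlr, the prolactin receptor, rose by 1.47 ± 0.22 and Igfbp1, a binding protein of insulin-like growth factors, by 1.65 ± 0.39.

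Of 20 PXR and CAR targets, 10 rose and 1 fell, with a median of 0.63 log2 units. Por, the electron donor of cytochromes P450, rose by 1.26 ± 0.14, Cyp2a5 by 1.89 ± 0.27 and the stress gene Gadd45b by 2.22 ± 0.31, while the sulfotransferase gene Sult5a1 fell by 2.20 ± 0.20. Of 12 NRF2 targets, 11 were tested, 2 rose and 1 fell, with a median of -0.22. The quinone reductase gene Nqo1 rose by 1.45 ± 0.18 and the glutathione transferase gene Gsta4 by 0.66 ± 0.17, while Gstp1, which also stands in the male-biased list, fell by 2.04 ± 0.26.

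Lists of genes that make or handle substrates of these carriers went in both directions. Of 13 bile acid synthesis genes, 12 were tested, 3 rose and 4 fell, with a median of -0.08 log2 units. Cyp39a1, an oxysterol hydroxylase in the female-biased list, rose by 2.57 ± 0.18 and the reductase gene Akr1d1 by 0.80 ± 0.17, while the hydroxylase gene Cyp7b1 of the male-biased list fell by 2.36 ± 0.25 and the racemase gene Amacr by 0.55 ± 0.12. Of 18 genes of thyroid hormone and steroid handling, 17 were tested, 2 rose and 8 fell, with a median of -0.45. Sult2a8 (-2.29 ± 0.18), which sulfates bile acids, and the glucuronosyltransferase genes Ugt2b38 (-4.81 ± 0.40) and Ugt2b1 (-1.83 ± 0.16) fell, and the sulfotransferase gene Sult1a1 rose by 1.60 ± 0.15. Of 15 prostaglandin genes, 12 were tested, 2 rose and 2 fell, with a median of 0.08. Besides Abcc4, Ptgds, a prostaglandin D synthase, rose by 2.04 ± 0.39, and Akr1c6 (-0.91 ± 0.17) and the cyclooxygenase gene Ptgs1 (-0.54 ± 0.17) fell. The Ptgs1 call was lost without CR ZT6 2 and CR ZT18 2 (adjusted p = 0.135 by edgeR), where Ugt2b38 had a difference of -5.54 ± 0.35.

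All 20 male-biased genes fell (median -4.24 log2 units), and all 22 tested of 24 female-biased genes rose (median 4.64). Over all tested genes 7.05% fell and 5.6% rose. These lists too were chosen with earlier results of these data known, so the full split may follow from the choice. Without CR ZT6 2 and CR ZT18 2 the same counts fell and rose, with medians of -5.34 and 4.62 log2 units. The steroid dehydrogenase gene Hsd3b5 had 7.89 ± 20.5 CPM in CR and 150 ± 75.6 CPM in AL, with 72.6 CPM in CR ZT18 2 and 2.99 CPM in CR ZT6 2. Mup7, which encodes a major urinary protein, had 24.6 ± 50.5 CPM in CR and 728 ± 553 CPM in AL, with 34.0 CPM in CR ZT18 2 and 182 CPM in CR ZT6 2. The 2 libraries were therefore not alike in every male-biased gene. Over the other 10 CR libraries Hsd3b5 had 1.91 ± 1.93 CPM and Mup7 7.87 ± 5.31 CPM, and the Mup7 difference was -6.34 ± 0.39 log2 units in place of -5.60 ± 0.42. Of the other lists, 1 nuclear receptor or factor rose and 5 fell without CR ZT6 2 and CR ZT18 2, 11 PXR and CAR targets rose and 1 fell, 4 bile acid synthesis genes rose and 4 fell, 1 thyroid hormone and steroid gene rose and 8 fell, and 2 prostaglandin genes rose and 1 fell. The counts of the growth hormone and NRF2 lists were as over all libraries. The sex-biased lists overlap the other lists in Cux2, Gstp1, Cyp39a1, Cyp7b1 and Ugt2b38.

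Genes whose levels ran most like each member were ranked by Pearson's r of log2 CPM among the 5379 genes whose geometric mean reached 10 CPM. The r over 24 libraries contains the diet difference, and all such values are descriptions. For Slco1a1 the closest were the major urinary protein genes Mup14 (0.982) and Mup20 (0.973), the complement gene C6 (0.967) and Cyp4a12a (0.963). Over the 12 CR libraries alone they were Cyp7b1 (0.962), Atp9a (0.956), Elovl3 (0.956) and Mup14 (0.948). Without CR ZT6 2 and CR ZT18 2 these r were 0.667, 0.825, 0.681 and 0.798, each lower than over the 12. Words shared with other genes made up 84.0% of Mup14 and 50.5% of Mup20.

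For Slco1a4 the closest over 24 libraries were Cyp3a59 (0.904), Trim24 (0.898), Slc16a7 (0.892) and Cyp39a1 (0.877), and over the 12 CR libraries Npc1 (0.942), Slc2a2 (0.910), Bbox1 (0.909) and Acsm5 (0.907). Over the other 10 CR libraries the r of the last 4 lay between 0.893 and 0.976. No gene stood in both of these lists, and Npc1 and Slc2a2, carriers of cholesterol and glucose, had small diet differences (0.51 ± 0.16 and 0.55 ± 0.14 log2 units). Slco1b2 ran closest to Kynu (0.822), Dhx36 (0.812) and Usp14 (0.797). Slco2b1 ran closest to Xylb (0.889), Fads1 (0.864) and Shpk (0.843), and Slco2a1 to Samd8 (0.801), F11r (0.800) and Sft2d2 (0.781).

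Among the members, within a diet and over 12 libraries each, Slco1a1 and Slco1a4 had an r of -0.55 in CR and -0.08 in AL, and the CR value was -0.13 without CR ZT6 2 and CR ZT18 2. Slco1a4 and Slco1b2 had 0.67 in CR, also without those libraries, and 0.36 in AL. However, CR ZT10 2 held the highest CR level of both Slco1a4 (152 CPM) and Slco1b2 (596 CPM). The r without CR ZT10 2 was not computed, so the CR value may rest on that library. Slco2a1 and Slco2b1 had 0.54 in CR, 0.37 without CR ZT6 2 and CR ZT18 2, and 0.64 in AL. The libraries of a diet share time points, depth and composition, and these values carry no test. Over the 24 libraries Slco1a1 had an r of 0.74 with the summed Kupffer cell markers and -0.61 with those of stellate cells and fibroblasts and 0.68 with those of B, T and NK cells. Slco1a4 had -0.75 with the Kupffer cell markers, 0.59 with the stellate cell and fibroblast markers and -0.65 with the B, T and NK cell markers. These sums differed between the diets themselves, and their part in the Slco levels was not tested. The stellate cell and fibroblast sum came mostly from Dcn and Ecm1, and the B, T and NK cell sum mostly from Ighm.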

How the data were processed

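Reads per gene were deposited as raw counts by the authors, and per the submitters' processing notes FastQC, HTSeq and DESeq2 were used with build GRCm38.p5. Tool versions and the aligner: not given in the sources used here. Libraries were unstranded and made from poly(A) RNA, per the labels. Depth was 13.8 to 60.8 M (mega) counted reads.

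Counts were fitted with edgeR 4.0.16 in R 4.3.3 (TMM, filterByExpr with 12 groups, 15490 genes kept, 1 mean per group), with Benjamini-Hochberg adjustment at 0.05 over all tested genes. Contrasts were the diet average, the diets per time point, time within each diet, diet by time, and a cosine of 24 h. Each SE of a log2 difference is the absolute difference divided by the square root of its quasi-likelihood F statistic. It was therefore derived from the test and is not a fitted SE of the coefficient. Log2 CPM used a prior count of 2. The scripts were tested on simulated data. Alternatives were DESeq2 1.42.0, other scalings and filters, no ribosomal RNA features (363), a replicate block, and libraries left out. Shared words of 50 bases, coding sequences and symbols came from GENCODE M21, which named 52489 genes.

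The members, lists and alternatives were chosen with earlier results of these data known. Named genes are the members, up to 4 called genes of smallest p per list, and those of highest r (4 for Slco1a1 and Slco1a4, over 24 and over 12 CR libraries, and 3 for each other member). Slc10a1, Abcb11 and Nr1i2 were named after their values were seen. The other Slco genes, listed in full, and the cell type markers stand outside this rule.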

Additional observations from a re-analysis of the deposited data

How the results depend on the processing

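The diet difference kept its direction in Slco1a1, Slco1a4, Slco1b2, Slco2a1 and Slco2b1 under every alternative run. Leaving out each library in turn gave -5.25 to -4.66 log2 units for Slco1a1, 2.56 to 2.80 for Slco1a4 and 7.51 to 8.19 for the ratio. Time of day in CR then had an adjusted p of 2.71e-05 to 0.00232 for Slco1a1 and 0.0111 to 0.110 for Slco2a1. Without CR ZT6 2 and CR ZT18 2 together both calls were lost (0.0980 and 0.0969), and 541 genes were called in place of 1070.

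Counts over all genes moved more, and the cause was not tested. The diet average called 1960 genes, 1170 with no composition factor, and 1412 to 2708 with a library left out. A filter of 1 CPM in 12 libraries turned the split of 868 higher and 1092 lower into 894 and 797, which removes low-count genes by construction. DESeq2 gave 1277 and 1233, and DESeq2-type size factors 982 and 955. Diet by time called 0 genes, 169 with DESeq2, 3 with no composition factor, 709 with no filter, 1 with the replicate block, and 0 to 41 with a library left out. Time in CR called 2728 with DESeq2, 2878 with no filter and 472 to 2929 with a library left out, the highest without CR ZT10 1. Time in AL called 783 genes, 2212 with DESeq2, 2257 with no filter and 185 to 1768 with a library left out. List genes called were 97, and 90 to 102 with a library left out. The cosine called 301 genes in CR and 65 in AL, against 1070 and 783 with 1 mean per group.

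No pairing by replicate number over all groups was seen. Deviations of same-numbered libraries correlated between -0.25 and 0.51 with a median of -0.00 over 55 pairs of groups, 9 of them over 0.1. A batch shared by only some groups was not tested. With the replicate block, the adjusted p of time in CR was 0.00145 for Slco1a1 and 0.0345 for Slco2a1, and the diet average called 1790 genes. Depth limits Slco1a1 in CR most, where 1 library held 19 reads, and groups of 2 libraries limit every time point.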
